A study of Mus musculus with 2 samples.

Results

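The 10 genes described here encode transcription factors and chromatin-associated proteins known for their part in pluripotency: Pou5f1, Nanog, Sox2, Esrrb, Zfp42, Klf4, Klf2, Klf5, Sall4 and Utf1. They were chosen by name, with earlier results of these data known, and are 10 of the 37310 genes in the GENCODE release M1 annotation of mm9. Each was found once in that annotation. Strand-specific reads of nonpolyadenylated (NPA) RNA were available from mouse R1 embryonic stem cells (ESCs), an established male line, at passage 18, grown with 1000 U/ml LIF on a layer of mitotically inactive mouse embryonic fibroblasts, and from neural progenitor cells (NPCs) derived from the same line. For the NPCs, LIF was withdrawn, embryoid bodies formed over 4 days and were replated on poly-L-ornithine and fibronectin, and the cells were gathered on day 7. There was 1 library per cell type, so no test between the cell types was possible. Intervals of counts, levels, shares and ratios below are 95% intervals that cover counting error only. Intervals of medians are order-statistic intervals that show the spread between the genes of a list.

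Pou5f1 (Oct4), Nanog and Sox2 form the core of the pluripotency network: they bind DNA at many of the same enhancers and maintain their own transcription. Esrrb, Klf2, Klf4, Klf5 and Zfp42 (Rex1) belong to the naive state that LIF sustains in mouse ESCs, Sall4 is a zinc finger factor that acts with the core, and Utf1 is a chromatin-associated protein of undifferentiated cells. On differentiation toward neural progenitors most of these genes are shut off, whereas Sox2 is known to stay active in the neural lineage. Messenger RNA of such genes carries a poly(A) tail. Reads on them in an NPA library can stem from RNA that escaped the removal of poly(A) RNA or from transcripts with a short tail or none. The authors also propose partly degraded mRNA or nascent transcripts as sources of such reads. These sources cannot be told apart here.

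The ESC library held 4271306 reads and the NPC library 4399729. A read was counted for a gene when it lay on the gene's strand and overlapped the merged exons of all its transcripts by at least 1 base. RPM scales reads by the total of their library, and RPKM divides this by the kilobases of merged exon. A count of 0 allows up to 3 reads, which was 0.702 RPM in ESCs and 0.682 RPM in NPCs. Exons of protein-coding genes took up 56.2% of the library in ESCs and 68.2% in NPCs, and over the 14859 genes with at least 10 reads in both libraries together, NPC over ESC had a median log2 ratio of 0.34. The medians of the members and of the gene lists are therefore also given relative to this value.

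The members were lower in the NPC library as a group. The size of the difference ran from 6.76-fold for Sox2 to a small one for Klf4. The interval of its log2 ratio held 0 when scaled by total reads. Together they had 9735 reads in ESCs, 0.228% of the library, and 4539 in NPCs, 0.103%. All 10 passed the minimum of 10 reads, with between 80 and 2623 reads in a library. Of the 10, 9 had a lower RPM in NPCs and 1, Klf5, a higher one, and 5 were more than 2-fold lower with 1 read added in each library: Sox2, Esrrb, Pou5f1, Nanog and Zfp42. Over all genes compared, 12.8% were more than 2-fold lower and 24.6% more than 2-fold higher, and 0 members were past 2-fold in that direction. The median log2 ratio of the members was -1.09 (order-statistic interval -2.16 to -0.18), or -1.42 against that all-gene median. All 10 lay below it, with relative log2 values from -3.08 for Sox2 to -0.04 for Klf5. In whole cultures, fewer cells that express a gene and less RNA per cell cannot be told apart.

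**Figure D1:**
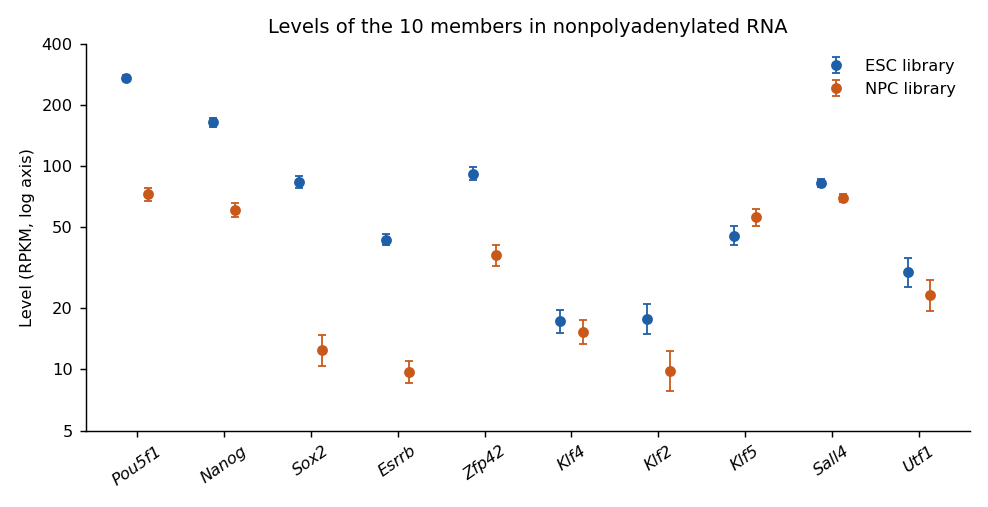
Level of each member (RPKM over the merged exons, log axis) in the ESC library (blue) and the NPC library (orange), with 95% Poisson intervals that cover counting error only. Sox2 dropped from 83.8 to 12.4 RPKM and Esrrb from 43.6 to 9.7, while Klf5 stood at 45.6 in ESCs and 56.1 in NPCs.

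**Figure D2:**
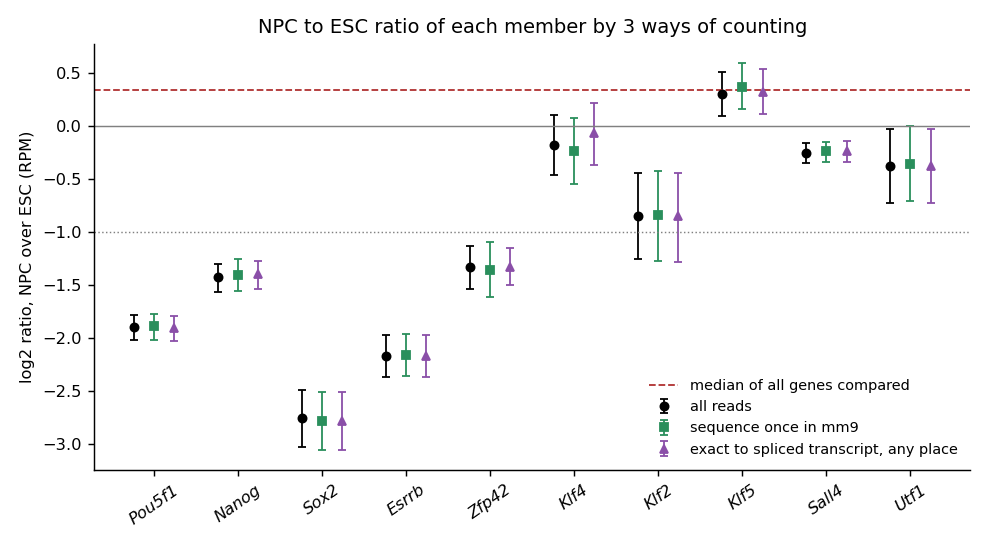
log2 ratio of NPC to ESC RPM for each member with its 95% conditional binomial interval, from all reads on the gene (black), from reads whose sequence occurs once in mm9 (green) and from all reads that match a spliced transcript of the member exactly wherever they were placed (purple). The dotted line marks a 2-fold difference and the dashed line the median of all genes, 0.34; the 3 ways of counting gave values within each other's intervals for every member.

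Pou5f1, the POU factor without which the inner cell mass loses pluripotency, was the member with the most reads in ESCs. The gene occupies chr17:35642982-35647721 on the plus strand. Its 2623 ESC reads and 724 NPC reads amounted to 272 RPKM (262 to 283) against 72.9 (67.7 to 78.5). The NPC level was 3.73-fold lower (3.44 to 4.06). Nearly all of these reads were in coding sequence, which took 98.6% of the reads within the coding and untranslated exon bases in ESCs and 99% in NPCs while making up 79.6% of those bases. Over coding sequence alone the levels were 532 and 143 RPKM, since merged exons of alternative transcripts that lengthen the gene model held few reads: the second merged exon, 588 bases long, had 3 reads in ESCs and 0 in NPCs. The reads were gathered in the fifth merged exon, with 1239 reads in ESCs and 293 in NPCs over 159 bases, while the last one held 169 and 42 over 489 bases. A single start position there opened 561 of the 2594 ESC reads with their 5′ end in an exon (21.6%) and 110 of 715 in NPCs (15.4%). It was the most used start in both libraries, and reads from it, 48 nt long, have the following coding sequence, shown because it carries more reads than any other position of the members.

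Pou5f1, chr17:35647006-35647053, plus strand: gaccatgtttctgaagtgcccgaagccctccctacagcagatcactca

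Part of the last Pou5f1 exon also exists elsewhere in the genome. Of the 1974 windows of 48 bases in the Pou5f1 exons, 355 occurred more than once. Of these, 338 were found again within the gene Rfwd2, on chromosome 1 between 161223936 and 161224320. This stretch is called an intron below, but its place relative to the Rfwd2 exons was not checked in these counts. The first 60 coding bases of that stretch are identical at both places.

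Pou5f1, chr17:35647333-35647392, plus strand, and Rfwd2 intron, chr1:161223936-161223995, plus strand: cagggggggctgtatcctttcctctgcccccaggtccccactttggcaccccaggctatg

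Over this window 86 reads were placed on Pou5f1 and 84 in Rfwd2 in ESCs, and 13 and 15 in NPCs, so reads that fit both places equally well were shared out nearly evenly. In all, 145 ESC reads and 33 NPC reads in the Rfwd2 intron matched spliced Pou5f1 exactly, and 0 reads there had a sequence found only in that copy. Reads with a sequence that occurs once in mm9 made up 93.1% of the Pou5f1 reads in ESCs (92 to 94) and 93.6% in NPCs (91.6 to 95.3), and gave a log2 ratio of -1.89 (-2.02 to -1.77) against -1.90 from all reads. Counting every read with an exact match to a spliced Pou5f1 transcript, wherever it was placed, gave 2693 and 737 reads and a log2 ratio of -1.91. At a processed copy on chromosome 3, from 3829013 to 3830060, all 3 ESC reads and all 5 NPC reads spanned a Pou5f1 exon junction. The annotated pseudogenes Gm6539 and Gm15049 had 0 reads in either library.

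Nanog, the homeodomain factor that holds cells in the undifferentiated state, occupies chr6:122657507-122664651 on the plus strand. The 1576 ESC reads and 601 NPC reads came to 165 RPKM (157 to 173) against 60.9 (56.2 to 66), which was 2.7-fold lower (2.46 to 2.97). The third merged exon was the densest, with 194 reads per 100 bases in ESCs and 69.2 in NPCs, and its most used start opened 126 reads (8.02%) in ESCs and 56 (9.41%) in NPCs. That coding start, the same in both libraries, is shown for comparison with the one in Pou5f1.

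Nanog, chr6:122661753-122661800, plus strand: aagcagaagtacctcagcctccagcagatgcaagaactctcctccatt

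Reads that occur once in mm9 made up a smaller share for Nanog than for Pou5f1, 83.6% in ESCs (81.6 to 85.4) and 84.9% in NPCs. Of its 2026 exon windows 443 occurred more than once, and 347 were shared with a copy on chromosome X between 87127691 and 87129235 that carries no gene in the annotation. At that copy 129 reads were placed in ESCs and 55 in NPCs, of which 115 and 52 matched spliced Nanog exactly, and 11 ESC reads and 0 NPC reads had a sequence found only there. The coding window in which the copy differs most is printed below, with differing bases in capitals (C3A, G45A, T59C and G60A, counted from the first base of the window, Nanog first).

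Nanog, chr6:122663329-122663388, plus strand: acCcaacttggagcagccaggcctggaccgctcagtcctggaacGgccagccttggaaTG
Copy, chrX:87128911-87128970, minus strand: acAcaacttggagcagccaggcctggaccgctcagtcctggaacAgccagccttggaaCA

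Over this window, where the copies can be told apart, Nanog had 13 ESC reads and 17 NPC reads, and the copy had 0 in both. With reads that occur once in mm9 the log2 ratio of Nanog was -1.41 (-1.56 to -1.26), against -1.43 from all reads. The annotated pseudogene Gm15901 had 0 reads in either library.

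Sox2, the SRY-related partner of Pou5f1 that is also a factor of neural stem cells, showed the largest difference of the members. The gene is a single exon at chr3:34548927-34551383, plus strand, within the noncoding gene Sox2ot, with which it shares 0 exon bases. It counted 879 reads in ESCs against 134 in NPCs, or 83.8 RPKM (78.3 to 89.5) and 12.4 RPKM (10.4 to 14.7), which was 6.76-fold lower (5.63 to 8.17). The difference in reads was not even along the transcript. Coding sequence had 595 and 63 reads, a log2 ratio of -3.28 (-3.68 to -2.91), whereas the 3′ UTR had 255 and 64, a log2 ratio of -2.04 (-2.46 to -1.64). The share of reads in coding sequence was 67.7% in ESCs (64.5 to 70.8) and 47% in NPCs (38.3 to 55.8). In ESCs 1 coding start alone opened 139 reads (15.8%), and the same start was the most used in NPCs with 9 reads (6.72%).

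Sox2, chr3:34549851-34549898, plus strand: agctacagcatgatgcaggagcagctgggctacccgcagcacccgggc

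Counting each start position once lowered the Sox2 difference to -1.86 on the log2 scale, with 251 starts in ESCs and 83 in NPCs. By distinct starts the regions were closer to each other: coding sequence had 137 in ESCs and 39 in NPCs, and the 3′ UTR 96 and 37. All 2410 windows of 48 bases in the Sox2 exon occur once in mm9. Of its reads, 97.7% in ESCs and 96.3% in NPCs had such a sequence, the other 20 and 5 had no exact match, and the reads that occur once gave a log2 ratio of -2.78 (-3.06 to -2.51).

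Esrrb, the orphan nuclear receptor that can stand in for Nanog in reprogramming, is the longest member locus, chr12:87702067-87862578 on the plus strand. Its exons had 1125 ESC reads and 258 NPC reads, or 43.6 RPKM (41 to 46.2) and 9.7 RPKM (8.55 to 11), which was 4.49-fold lower (3.92 to 5.16). The first annotated exon had 0 reads in both libraries and the second had 1 and 0, so the reads began at the third merged exon, with 201 in ESCs and 40 in NPCs. The last exon, mostly 3′ UTR, held 788 and 180. Esrrb was also the member with the most intron reads in ESCs, 356 on the gene's strand against 71 in NPCs, a log2 ratio of -2.37 whose interval held the exon value of -2.17. It was the only member with more than 3 antisense reads in its introns, outside exons of opposite-strand genes. These numbered 163 in ESCs at 125 starts and 21 in NPCs at 19 starts. Per base, however, Esrrb introns had 1.16% of the exon density in ESCs and 1.03% in NPCs, below the median of 10103 multi-exon coding genes, 3.07% and 2.66%.

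Zfp42 (Rex1), a zinc finger marker of naive cells, is encoded at chr8:44380422-44392363, minus strand. With 707 ESC reads and 289 NPC reads it stood at 92 RPKM (85.3 to 99) and 36.5 RPKM (32.4 to 41), which was 2.52-fold lower (2.19 to 2.9). This call is the one that depends on how reads with the same start are treated: with each start counted once, the log2 ratio was -0.97. Coding sequence held 84.9% of its reads in ESCs and 82.7% in NPCs.

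Zfp42 had the smallest share of reads that occur once in mm9, 63.9% in ESCs (60.3 to 67.5) and 63% in NPCs (57.1 to 68.6). A copy without introns lies on chromosome 15 between 93509043 and 93510426, where the annotation has no gene, and 579 of the Zfp42 windows are repeated there. It received 455 reads in ESCs and 227 in NPCs, as against 707 and 289 on the gene itself. Of those, 241 and 109 matched spliced Zfp42 exactly, which was 26.8% (24 to 29.9) and 29.5% (24.9 to 34.5) of all reads with such a match, and 21 and 14 of them spanned an exon junction of Zfp42 that exists in the copy without its intron. Another 177 reads in ESCs and 101 in NPCs had a sequence found only in the copy, and 173 and 99 of them differed from spliced Zfp42 by 1 base.

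Most of the reads found only in the copy turned on a single base of the last coding exon. At position 44380965 of chromosome 8 the reference Zfp42 has C in the sense of the transcript and the copy has A. In ESCs 165 reads and in NPCs 93 carried the copy's base with no other difference from Zfp42 and were placed on chromosome 15, while 0 reads in either library covered the position on Zfp42 itself. The last 60 coding bases are printed for both places, with the differing base in capitals (C45A, counted from the first base of the window).

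Zfp42, chr8:44380950-44381009, minus strand: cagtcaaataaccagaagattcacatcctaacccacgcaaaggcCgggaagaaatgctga
Copy, chr15:93509591-93509650, minus strand: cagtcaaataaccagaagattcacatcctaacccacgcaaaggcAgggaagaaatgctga

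Over this window 34 reads were placed on Zfp42 and 193 on the copy in ESCs, and 17 and 102 in NPCs. A second window, slightly upstream, gave the opposite split: the copy differs there at 2 bases (G46A and G59T), and all reads, 44 in ESCs and 32 in NPCs, were placed on Zfp42.

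Zfp42, chr8:44381156-44381215, minus strand: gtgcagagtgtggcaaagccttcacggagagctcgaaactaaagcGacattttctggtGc
Copy, chr15:93509797-93509856, minus strand: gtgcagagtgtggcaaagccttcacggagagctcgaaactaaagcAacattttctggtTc

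The NPC to ESC ratio of Zfp42 was similar in 3 ways of counting. All 3 leave out the reads with a sequence found only in the copy, 177 in ESCs and 101 in NPCs. A ratio that includes those reads was not computed. The log2 ratio was -1.33 (-1.54 to -1.13) from all reads on the gene and -1.36 (-1.61 to -1.10) from reads that occur once. From the 898 and 369 reads with an exact match to a spliced transcript at any place it was -1.33 (-1.50 to -1.15). The level, in contrast, depended on the way of counting. A count restricted to reads that occur once kept 452 of 707 reads in ESCs and 182 of 289 in NPCs.

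**Figure D3:**
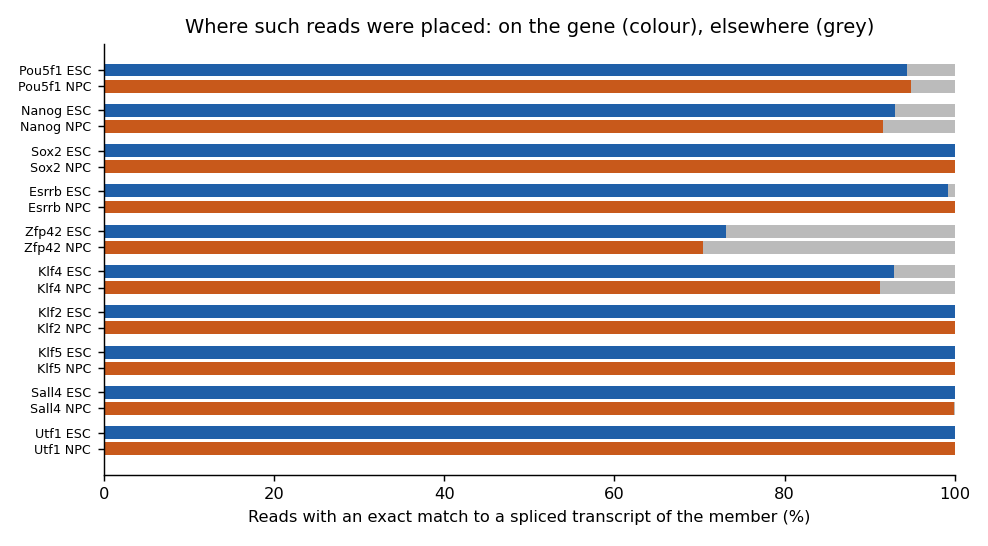
Share of the reads with an exact match to a spliced transcript of a member that were placed on the gene (blue for ESC, orange for NPC) or elsewhere in mm9 (grey). For Zfp42 26.8% in ESCs and 29.5% in NPCs lay elsewhere, for Nanog 7.04% and 8.41%, for Klf4 7.11% and 8.81% and for Pou5f1 5.57% and 5.16%; Sox2, Klf2, Klf5 and Utf1 had 0 such reads.

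The 3 Krüppel-like factors, which bind GC-rich elements near many pluripotency genes and can partly replace each other, were low to moderate in level, and none was past 2-fold between the libraries. Klf2 came closest, at 1.8-fold lower in NPCs (1.36 to 2.4). Klf4, one of the classical reprogramming factors, is found at chr4:55540013-55545347, minus strand. It had 226 ESC reads and 206 NPC reads, a log2 ratio of -0.18 (-0.46 to 0.10) when scaled by total reads. Scaled by the median of ratios over genes or by coding exon reads it was -0.45. Over all alternatives it ran from -0.53 to -0.07. Within Klf4 the regions went different ways: coding sequence had 142 and 108 reads, a log2 ratio of -0.44 (-0.81 to -0.07), and the 3′ UTR 53 and 80, a log2 ratio of 0.55 (0.03 to 1.08). Its introns differed most, with 83 reads in ESCs at 47 starts and 17 in NPCs at 14 starts, a log2 ratio of -2.33 (-3.18 to -1.57). Per base, reads wholly inside Klf4 introns reached 41.7% of the exon density in ESCs and 9.79% in NPCs, both above the median of coding genes.

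Klf2, which together with Klf4 and Klf5 sustains self-renewal, is found at chr8:74842932-74845555, plus strand. It had the fewest reads of the members, 140 in ESCs and 80 in NPCs, a log2 ratio of -0.85 (-1.26 to -0.44). As in Klf4, the coding sequence and the 3′ UTR differed: coding sequence had 95 and 37 reads, a log2 ratio of -1.40 (-1.99 to -0.84), while the 3′ UTR had 42 in both, a log2 ratio of -0.04 (-0.70 to 0.61). With coding sequence alone (-1.39), or scaled by the median of ratios over genes (-1.12), Klf2 passed 2-fold. Klf2 introns also had a high density, 44.1% of the exons in ESCs and 29.7% in NPCs, on 26 and 10 reads.

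Klf5, which also acts in the trophectoderm and in epithelia, is found at chr14:99697910-99712624, plus strand. It was the member with a higher RPM in NPCs, with 335 reads in ESCs and 425 in NPCs, a log2 ratio of 0.30 (0.09 to 0.51). Scaled by the median of ratios over genes or by coding exon reads the value was 0.02, and with each start counted once it was -0.11, so the sign changed with the count of starts and the size with the scaling. The annotation gives Klf5 a 3′ UTR of 76 bases. Past the annotated end, on the same strand, 253 reads in ESCs and 464 in NPCs had their 5′ end within 2000 bases, against 253 and 467 within 5000 bases, so nearly all lay close to the gene. Their log2 ratio over 5000 bases was 0.84 (0.62 to 1.07). Exon reads and reads of the first 2000 bases together came to 588 and 889.

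Sall4, a zinc finger factor that recruits a deacetylase complex, is encoded at chr2:168573832-168593443, minus strand. It had 1966 reads in ESCs, the second most of the members, and 1697 in NPCs, the most there. Its levels were 83.1 RPKM (79.5 to 86.9) and 69.7 RPKM (66.4 to 73.1), which was 1.19-fold lower (1.12 to 1.27). Coding sequence had a log2 ratio of -0.36 (-0.47 to -0.25) on 1515 and 1215 reads, and the 3′ UTR 0.08 (-0.12 to 0.27) on 432 and 469. Utf1, at chr7:147129688-147131011 on the plus strand, had 158 and 125 reads, or 30.1 RPKM (25.6 to 35.2) and 23.2 RPKM (19.3 to 27.6). Its log2 ratio was -0.38 (-0.73 to -0.03).

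The order of the levels changed between the libraries. In ESCs, by RPKM over the merged exons, Pou5f1 (272) was followed by Nanog (165), Zfp42 (92), Sox2 (83.8), Sall4 (83.1), Klf5 (45.6), Esrrb (43.6), Utf1 (30.1), Klf2 (17.7) and Klf4 (17.3). The intervals of the ratio held 1 for the neighbours Zfp42 and Sox2, Sox2 and Sall4, Klf5 and Esrrb, and Klf2 and Klf4, and those neighbours did not differ beyond counting error. In NPCs Pou5f1 (72.9) and Sall4 (69.7) were first, with a ratio of 1.05 (0.958 to 1.14), then Nanog (60.9), Klf5 (56.1), Zfp42 (36.5), Utf1 (23.2), Klf4 (15.3), Sox2 (12.4), Klf2 (9.84) and Esrrb (9.7). Here the interval also held 1 for Nanog and Klf5 and for all neighbours from Klf4 downward. Sox2 and Esrrb, at places 4 and 7 in ESCs, were at 8 and 10 in NPCs. By RPKM over coding sequence Pou5f1 stayed first in both libraries, and Nanog, at 96.3, stood above Sall4, at 85.5, in NPCs.

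Along the transcripts, the most used start was the same in both libraries for all members but Esrrb, Zfp42, Klf5 and Utf1. Pooled over the 10 genes, 49% of the ESC reads (48 to 50) and 48.3% of the NPC reads (46.9 to 49.8) lay in the 5′ 50% of the merged exon length. Among 3448 coding genes of the same length range the median share was 50.7% and 48.6%. Single members departed from this in both directions. Zfp42 had 81.4% and 74.9% of its reads in the 5′ part and Nanog 74% and 69.7%, while Pou5f1 had 22.7% and 28.5% and Utf1 27.8% and 18.4%. The share was lower in NPCs than in ESCs for 8 members, most of all for Sox2, 65.5% (62.3 to 68.7) in ESCs and 44% (35.5 to 52.9) in NPCs, or 53% and 44.6% of its distinct starts. It was higher for Pou5f1, and for Esrrb it was 28.7% and 29.4%. By distinct starts the Pou5f1 share was nearly the same in both libraries, 35.5% in ESCs and 36.6% in NPCs. The intervals of the shares of reads in both libraries lay apart for Sox2 and Pou5f1 and overlapped for the other members.

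**Figure D4:**
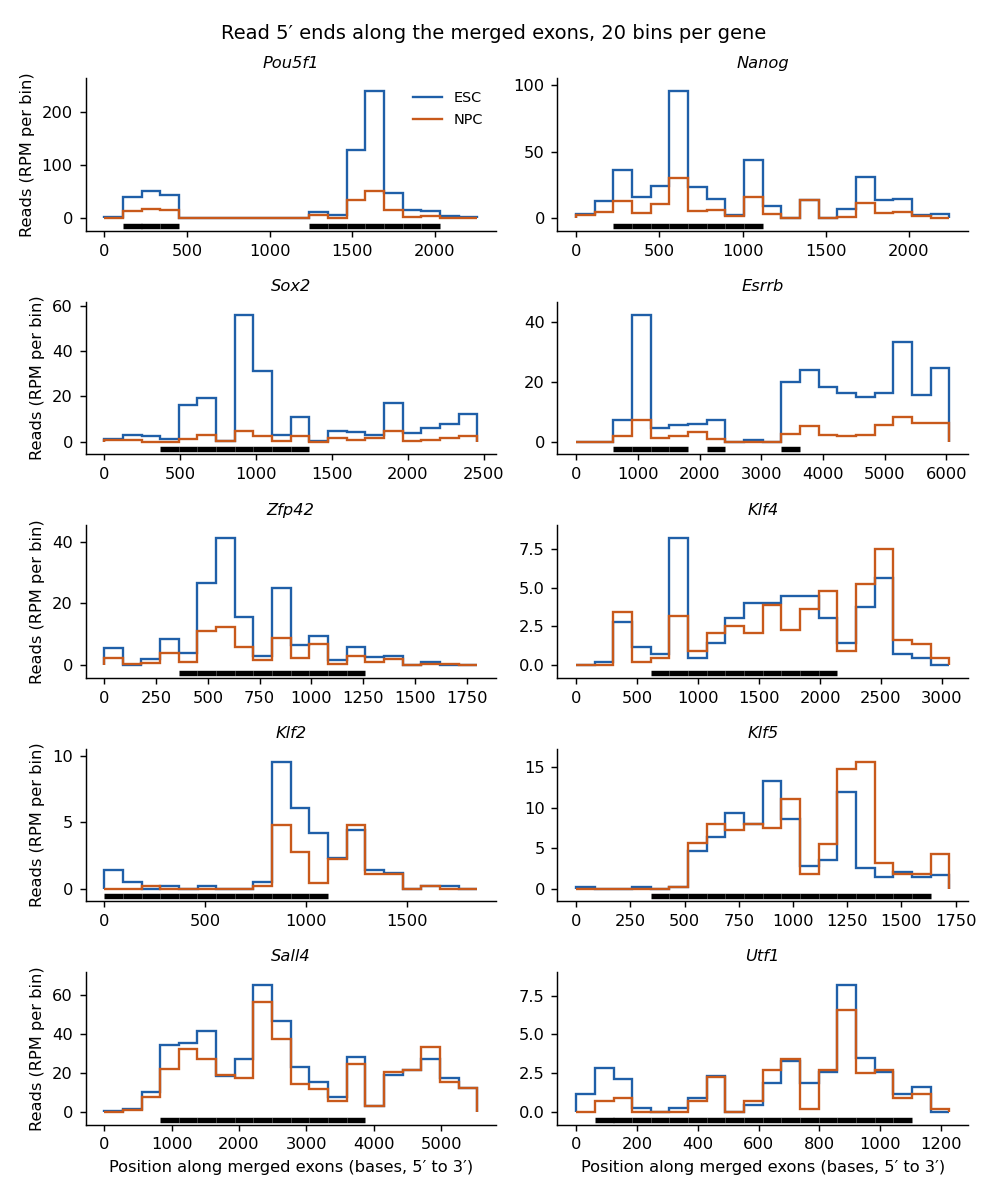
Number of read 5′ ends (RPM) in 20 equal bins along the merged exons of each member, 5′ to 3′, in the ESC (blue) and NPC (orange) libraries; black bars mark bins that are mostly coding. The Sox2 bin that holds position 925 is the highest in ESCs, at 56.2 RPM, and stands at 4.55 RPM in NPCs, where the highest bin of Sox2 is at 4.77.

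Repeated use of single starts was greatest where levels were highest. Pou5f1 had 8.49 reads per distinct start in ESCs and 4.14 in NPCs, Nanog 5.02 and 3.6, and the other 8 members between 1.63 and 3.5 in ESCs and between 1.54 and 2.73 in NPCs. Reads from 1 start can come from copies made in the amplification of the library or from separate molecules cut at the same place, and these cannot be told apart in these files. With each start counted once, the log2 ratios were smaller for all 5 members that had been called lower: -1.09 for Pou5f1, -1.18 for Nanog, -1.86 for Sox2, -1.75 for Esrrb and -0.97 for Zfp42, against a median of all genes of 0.01 on that count. Other members moved away from 0, Klf4 to -0.51, Utf1 to -0.76 and Sall4 to -0.36, and Klf2 was at -0.81. Antisense reads over exons were 0 for 9 members in both libraries, and Sox2 had 1 in ESCs. This count left out exon bases opposite exons of another gene, which were 526 bases of Sall4, opposite Gm14261.

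Other genes of the pluripotent state and of the signals that sustain it were counted from lists set out with the members. Of 14 other naive pluripotency regulators, 11 had a lower RPM in NPCs and 3 a higher one, with 4 past 2-fold lower and a median log2 ratio of -0.52 (-1.19 to 0.04), or -0.86 relative to all genes. Prdm14, which represses lineage genes in naive cells, had 80 reads in ESCs and 8 in NPCs, a log2 ratio of -3.36 (-4.63 to -2.32). Nr0b1 (Dax1) had 180 and 68, while Trim28, a corepressor with the most reads of the list, had 3057 and 3244 and Rif1 had 1784 and 1294. Tcf7l1, the repressor through which Wnt signals reach these genes, had 27 and 119, and Zfp281 154 and 194. Of 12 products enriched in pluripotent cells, 9 were lower and 3 higher. Past 2-fold were 7 lower and 1 higher, against the same shares of all genes. The median of this list was -1.17 (-2.20 to 0.04), close to that of the members, or -1.50 relative to all genes. The Nodal co-receptor Tdgf1 had 1061 reads in ESCs and 149 in NPCs, Dppa5a 1100 and 245, and Tcl1 172 and 29. Lin28a, the RNA-binding protein that blocks let-7 processing, had 425 and 953, and Fbxo15 268 and 328.

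LIF and BMP signalling genes went mostly the other way. Of 12, 11 had a higher RPM in NPCs, 8 of them past 2-fold, against 24.6% of all genes compared. Their median log2 ratio was 1.14 (0.15 to 1.32), or 0.81 relative to all genes. With each start counted once, the median was smaller, 0.56 (-0.12 to 0.86). The receptors Lifr (484 and 1194 reads) and Bmpr1a (369 and 923) were 1.26 and 1.28 higher on the log2 scale, and Myc had 21 and 108. Of the BMP targets, Id2 had 33 and 104 reads and Id1 37 and 39. Socs3, the feedback inhibitor induced by LIF, was the gene that was lower, with 404 reads in ESCs and 89 in NPCs, a log2 ratio of -2.23 (-2.57 to -1.89). Of 18 relatives of the members, 16 had enough reads, with a median log2 ratio of 0.43, or 0.10 relative to all genes. Sox15 (73 and 20 reads) and Klf10 (564 and 218) were the lowest by ratio and Klf9 had 669 and 475, while Klf6 (375 and 1590), Klf13 (119 and 526) and Sall2 (14 and 234) were higher in NPCs.

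**Figure D5:**
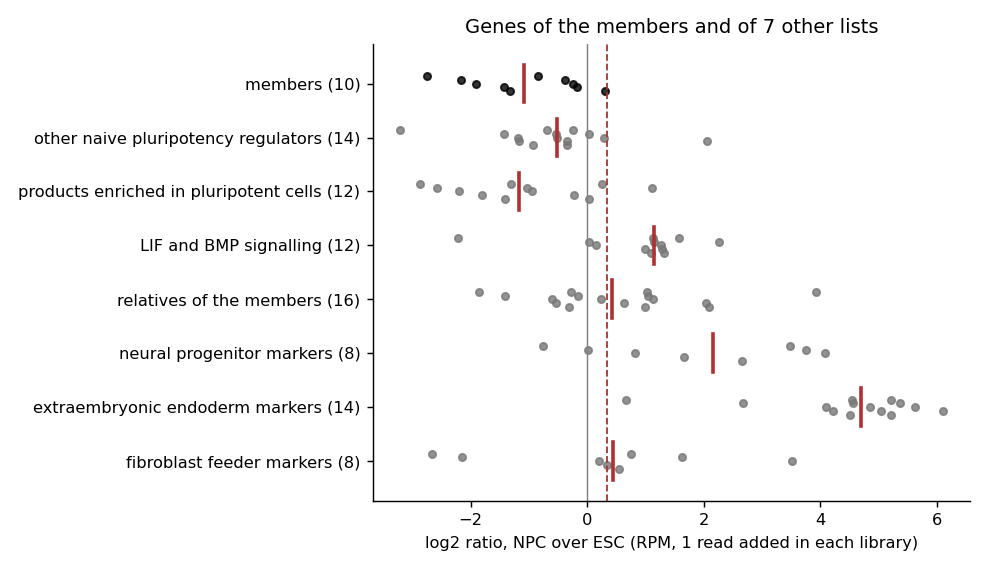
log2 ratio of NPC to ESC RPM, with 1 read added in each library, for the genes of each list with at least 10 reads (number in parentheses); each point is a gene and the red bar is the median of its list. The dashed line is the median of all genes, 0.34; the members have a median of -1.09 and the extraembryonic endoderm markers one of 4.70.

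The cell type of the NPC library was checked against marker genes. Neural progenitor markers had few reads: of 14 in the annotation, 8 had at least 10 reads over both libraries, and the summed level of the list was 66.3 RPM in ESCs and 121 RPM in NPCs. Of these 8, 7 were higher in NPCs and 5 past 2-fold higher, against 24.6% of all genes compared. Those 5 each had fewer than 10 reads in ESCs and passed the minimum through their NPC reads, so their direction partly follows from it. The others with enough reads, Nes, Ncam1 and Msi1, had log2 ratios of 0.83, 0.01 and -0.77. The median log2 ratio of the 8 was 2.16 (-0.76 to 4.08, the lowest and highest gene), or 1.82 relative to all genes, with the same limit. With Pax3, which had 0 reads in ESCs, set at its lower bound, the median was 1.87. Nes had 66 and 121 reads, Ncam1 100 and 104, Msi1 99 and 60, Zic1 1 and 22 and Cdh2 8 and 156. Pax6, a defining factor of neural progenitors, had 1 read in ESCs and 12 in NPCs, Olig2 had 0 in both, and Fabp7 and Neurog2 had 0 in ESCs and 2 and 3 in NPCs. Pax6, Fabp7 and Neurog2 were named after their values were seen. The library labelled NPC held few reads of them and 0 of Olig2, while Pax6 was 1 of the 7 markers that were higher in NPCs. Extraembryonic endoderm markers, in contrast, summed to 560 RPM in ESCs and 12455 RPM in NPCs. Of the 15, 14 had enough reads and were all higher. Their median log2 ratio was 4.70 (4.10 to 5.37), or 4.37 relative to all genes. With Ttr, at 0 reads in ESCs, set at its lower bound, the median was 4.55. Afp, Amn, Foxa2, Gata6, Sox7, Sox17 and Ttr had fewer than 10 ESC reads and passed the minimum through their NPC reads. For these, being higher partly follows from that minimum. The other markers with enough reads had log2 ratios from 2.68 (Cubn) to 4.86 (Col4a2). Gata6 went from 8 to 459 reads, Afp from 1 to 141, Cubn from 80 to 529, and the basement membrane genes Col4a1 and Lamb1 from 856 to 20753 and from 585 to 10367. Fibroblast markers, which the feeder layer could bring, summed to 75.6 RPM in ESCs and 142 RPM in NPCs. Acta2 alone made up 27 of 323 reads of this list in ESCs and 331 of 625 in NPCs. Of the 8 with enough reads, 2 were past 2-fold lower and 2 past 2-fold higher, against 12.8% and 24.6% of all genes compared. The median log2 ratio of the 8 was 0.44, or 0.11 relative to all genes. Lum had 0 reads in both, Thy1 had 79 and 12, Pdgfrb 93 and 21, and Col1a2 51 and 165. The part of these cell types in the levels of the members was not tested.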

How the data were processed

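NPA RNA of 1 ESC and 1 NPC library was sequenced strand-specifically on the SOLiD platform after ribosomal RNA and poly(A) RNA had been depleted. The authors aligned the reads to mm9 with Bowtie, allowing mismatches and reads with more than 1 placement, and removed mitochondrial, ribosomal and repeat reads. They deposited 1 line per read with chromosome, start, end, strand and the 48-nt sequence. The interval was shorter than its sequence for 3.77% of ESC reads and 4.23% of NPC reads.

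Counts were made here from the deposited reads with GENCODE M1 on NCBIM37, the mm9 assembly. The number of exact matches of each 48-nt sequence in the genome was found on both strands: 78.2% of ESC reads and 83.2% of NPC reads occurred once, and 4.19% and 3.98% had no exact match. Counts have exact Poisson, shares Clopper-Pearson and ratios conditional binomial intervals. Medians have order-statistic intervals over the genes of a list. A list's ratios and the 2-fold calls had 1 read added in each library. Similar loci were found with BLAST+ 2.17.0, with coding sequences as queries. The counting and intervals were checked on simulated data. The members and lists were chosen with earlier results of these data known. All 10 members are named; of each other list, the 2 genes with the most reads, the 2 with the lowest and highest ratio among those with at least 20 reads, and markers at 0 reads. Other markers beside them were named after their values were seen. Tfcp2l1 and Sox1 were not analysed here. Single values of some neural progenitor markers are not reported here; they count in the sums of their list. Where a gene name occurs at more than 1 locus, the one with the most reads was used. Python 3.11.15, NumPy 2.4.6, SciPy 1.17.1 and matplotlib 3.10.9 were used.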

Additional observations from a re-analysis of the deposited data

How the results depend on the processing

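With 1 library per cell type there was no replicate to leave out. No paired analysis was possible because each group has 1 library. Over 9 alternatives, the ratios of the 10 members kept their sign in all of 90 values but 1, Klf5 with each start counted once (-0.11). Scaling by the median of ratios or by coding exon reads lowered every log2 ratio by 0.28. The number of members more than 2-fold lower was 5, between 4 with each start counted once (without Zfp42) and 6 with coding sequence only or with either other scaling (with Klf2). With each start counted once, the share of member reads that occur once was 89.7% in ESCs and 90.4% in NPCs, against 90.7% and 91.7%, and the median of the extraembryonic endoderm markers was 3.17 against 4.70. Over coding sequence, an alternative chosen after seeing the data like the count of exact matches at any place, the highest member level was 532 RPKM in ESCs and 143 in NPCs. The causes of these shifts were not tested, beyond the construction of each count. Depth limits the members with the fewest NPC reads most: the intervals of Klf2, Utf1, Sox2 and Klf4 each span over 0.5 on the log2 scale.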
